A study of Homo sapiens with 18 samples.

Results

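The gene expression of NB4 cells after 72 h of all-trans retinoic acid (ATRA) was set against that after 48 h, with TG2 knockout and wild-type cells pooled. NB4 is a human cell line that was established from acute promyelocytic leukemia. The comparison used 12 of the 18 arrays of the series, chosen by the exposure time in their titles: 6 arrays at 72 h and 6 at 48 h. The groups were TG2 knockout and wild-type cells given 1 µM ATRA for 72 h, TG2 knockout and wild-type cells given 1 µM ATRA for 48 h, and, as the baseline, untreated TG2 knockout and wild-type cells. Each group held 3 biological replicates, and genotype was a block in the test. The labels do not say whether replicates were separate cultures, so p-values measure the spread between these arrays. The titles call the modified line a TG2 knockout while the sample codes carry the letters KD, and how it was made, or from how many clones, is not given in the sources used here. Both lines carry the fusion of PML and RARA that defines this leukemia, and every group compared here had ATRA.

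ATRA binds retinoic acid receptors, among them the fusion protein of these leukemia cells, and releases the block that holds them at the promyelocyte stage. The cells leave the cell cycle, make the oxidase, receptors and adhesion molecules of granulocytes, and switch on retinoid-induced genes such as TGM2. TGM2 encodes tissue transglutaminase (TG2), an enzyme that cross-links proteins and binds GTP. The comparison asks which transcripts differed between the 2 exposure times.

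Total RNA was measured on Affymetrix whole-transcript arrays with 33297 probe sets, and levels are log2 signals as deposited, between 0.73 and 13.56. Differences are log2 differences, 72 h minus 48 h. The number of arrays limits the precision. No probe set was screened for detection. Array medians lay between 6.12 and 6.26. Arrays of the same ATRA group correlated at 0.966 to 0.979 over probe sets, and arrays of the 2 times in the same line at 0.954 to 0.980. The median SD of a probe set within a group was 0.0985 in untreated TG2 knockout and 0.0757 in untreated wild-type cells. It was 0.243 in TG2 knockout and 0.231 in wild-type cells at 48 h, and 0.226 in TG2 knockout and 0.215 in wild-type cells at 72 h.

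By their score on the first principal component, some ATRA arrays stood nearer to the untreated cells than others, and they were spread unevenly over the times. The first principal component of the 18 arrays held 57.1% of the variance and placed the untreated arrays between -89.9 and -84.7. At 72 h the TG2 knockout arrays scored 49.5, 30.0 and 46.3 and the wild-type arrays 48.4, 50.3 and 54.4. At 48 h the TG2 knockout arrays scored 31.2, 55.5 and 31.1 and the wild-type arrays 17.5, 51.7 and 56.6. The 4 lowest ATRA scores thus belonged to TG2 knockout replicate 2 at 72 h and to TG2 knockout replicates 1 and 3 and wild-type replicate 1 at 48 h. Where these 4 arrays were left out, TG2 knockout replicate 2 was the only array of its line at 48 h. Below, nearness to untreated cells means this score alone, and single genes can order the arrays otherwise. The granule gene BPI, induced by ATRA, read 9.83, 9.54, 10.75 and 9.97 in these 4 arrays, in that order. Its lowest ATRA value, 9.24, was in TG2 knockout replicate 2 at 48 h, which scored 55.5. The scores of the 2 times overlapped, with means of 46.5 ± 8.52 at 72 h and 40.6 ± 16.2 at 48 h (SD, n = 6). The difference of 5.89 had a two-sided exact permutation p of 0.51, with times exchanged within each line over 400 arrangements, whose smallest possible p is 0.005.

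**Figure D1:**
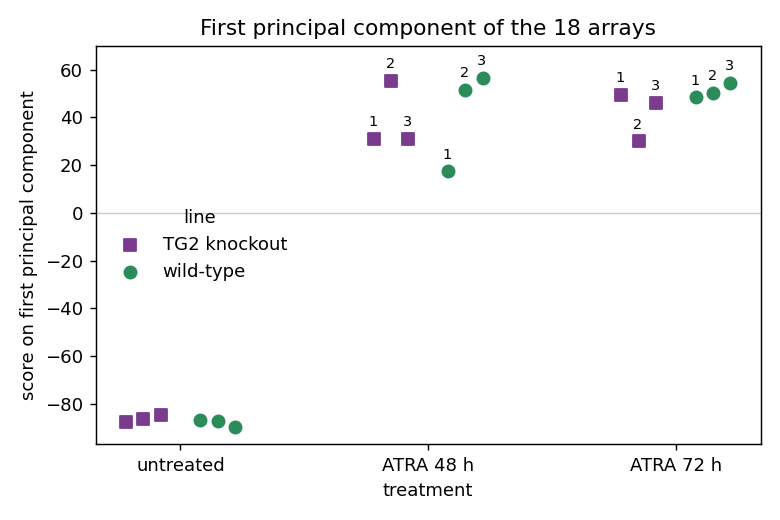
Score of each of the 18 arrays on the first principal component (no unit) by treatment, with TG2 knockout cells as squares, wild-type cells as circles and the replicate number above each ATRA array. The untreated arrays lie between -89.9 and -84.7, and the ATRA arrays of 48 and 72 h cover overlapping ranges, with the lowest ATRA score, 17.5, at 48 h.

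No transcript passed the test between 72 and 48 h. With limma, 0 of 33297 probe sets (0%) had a Benjamini-Hochberg adjusted p under 0.05, and the smallest adjusted p was 0.978. Before adjustment, 1351 probe sets (4.06%) had a p under 0.05, of which 829 were higher (2.49%) and 522 lower (1.57%) at 72 h. This split turned to 627 higher and 641 lower after quantile normalization, and to 966 higher and 452 lower after centring each array on its median, again with 0 calls. The 6 arrays of each time did not overlap for 39 probe sets that were higher (0.117%) and 20 that were lower (0.0601%) at 72 h. Without the 4 arrays nearest to untreated cells the number of calls was 0 and the smallest adjusted p 0.07. Leaving out wild-type replicate 3 at 48 h, or TG2 knockout replicate 2 at 72 h, gave 1 call each, at a probe set with no gene name (adjusted p 0.00187 and 0.0373).

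The pooled estimates set limits on how far the mean change of the 2 lines could have gone, and not on either line alone. Taking 1 probe set a gene, the median difference over 18417 genes was 0.005, and 99.7% of genes had an estimate within 1.5-fold. The 95% interval lay inside 2-fold for 98.9% of genes and inside 1.5-fold for 85.9%. Over probe sets the interval reached a median of 0.326 to either side of the estimate. Of 102 probe sets with a pooled estimate of 2-fold or more, 1 belonged to a single gene, CXCL10. Within a line, 426 probe sets in TG2 knockout and 298 in wild-type cells had an estimate of that size. Dim probe sets made up much of the 829 that were higher at an unadjusted p under 0.05. Of these, 669 had a mean signal below the median of all probe sets (6.18), against 272 of the 522 that were lower at that threshold.

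**Figure D2:**
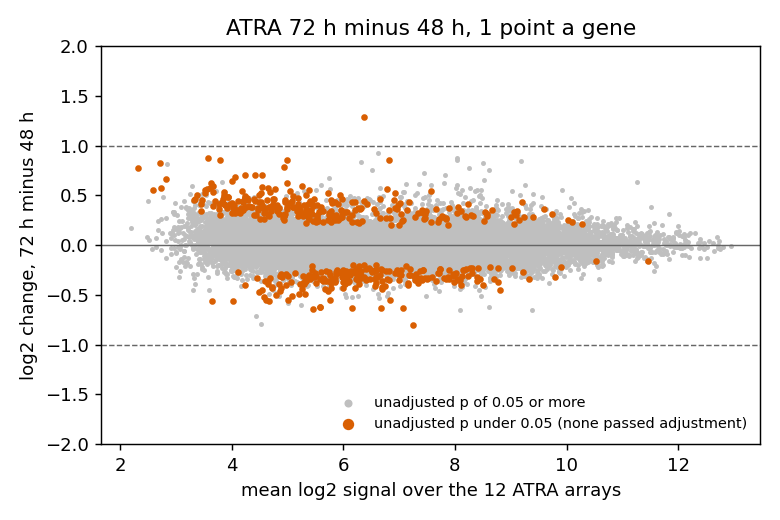
Log2 difference, 72 h minus 48 h, against the mean log2 signal over the 12 ATRA arrays, 1 point for each of 18417 genes, with dashed lines at 2-fold. Orange points have an unadjusted p under 0.05 in limma, and CXCL10 at 1.28 is the point above the upper line.

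TGM2, the gene aimed at in the knockout line, overlapped between the times in each line. In TG2 knockout cells it read 11.61, 10.87 and 11.25 at 72 h, against 11.01, 10.56 and 11.29 at 48 h. In wild-type cells it read 12.54, 12.19 and 12.39 at 72 h, against 12.34, 12.06 and 12.40 at 48 h. Untreated arrays lay between 6.27 and 6.61 in the 2 lines, so the transcript was present far above that level in every ATRA array of the line titled knockout. The difference was 0.20 ± 0.14 (SE, 95% interval -0.10 to 0.50, unadjusted p 0.181), with 0.29 in TG2 knockout cells and 0.11 in wild-type cells. It was 0.10 without TG2 knockout replicate 2 at 48 h, which had the lowest ATRA value, 10.56. Without the 4 arrays nearest to untreated cells it was 0.40, with that replicate as the only TG2 knockout array at 48 h.

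Gene lists for granulocyte differentiation, signalling, proliferation and metabolism were read beside these values. The 37 lists named 980 genes, of which 892 were measured, and 0 were called. At an unadjusted p under 0.05, 10 list genes were higher and 5 lower at 72 h, against 275 higher (1.49%) and 219 lower (1.19%) of all 18417 genes. Of the 892, 453 had a higher and 436 a lower estimate, and the interval lay inside 2-fold for 840. Lists are described below by their counts and median differences, which stand beside a median of 0.005 over all genes. The medians of 25 lists kept their sign in every alternative setting, and those of the other 12 changed it in at least 1: amino acid stress, azurophil granule, specific granule, cell cycle inhibitors, chemokines, cholesterol synthesis, eicosanoids, glycolysis, lymphocyte markers, myeloid transcription factors, uptake of dying cells and transglutaminases. With 1 array left out at a time, the medians of all 37 lists moved by over 1.5 times or changed sign in at least 1 case. Of 108 genes named for the pooled comparison, the estimates of 33 moved by over 1.5 times and none changed sign. Most of these genes were chosen for a small p or a large estimate in the same arrays. That choice favours a kept sign, so the count is no independent check. Every gene named below had an adjusted p of 0.978 or more in the pooled comparison. In bulk RNA, fewer cells of a type and less RNA per cell cannot be told apart.

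Interferon-response genes had the highest median difference of the 37 lists. These genes are switched on by interferons and encode antiviral proteins. In this list 36 of its 40 measured genes had a higher estimate at 72 h and 4 a lower one, with a median of 0.24. None was called, and 4 had an unadjusted p under 0.05, all higher. Among the 4 were RIGI, a sensor of viral RNA, IFI44, and the antiviral GTPase MX1. The fourth, IRF9, is a DNA-binding transcription factor of the interferon response.

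Promoters of IFI44 and RIGI, from this list, and of CXCL10, an interferon-inducible gene of the chemokine list described below, are shown, because the interferon-stimulated response element, through which interferons act on many such genes, can be looked for in them directly. They are the 250 bases before the RefSeq gene start in GRCh38.p14, 5′ to 3′ on the gene's strand, in lower case, with capitals for the element's core, GAAANNGAAA, searched on both strands. IFI44 lies on the plus strand at chr1:78649539-78649788, CXCL10 on the minus strand at chr4:76023498-76023747 and RIGI on the minus strand at chr9:32526197-32526446.
IFI44: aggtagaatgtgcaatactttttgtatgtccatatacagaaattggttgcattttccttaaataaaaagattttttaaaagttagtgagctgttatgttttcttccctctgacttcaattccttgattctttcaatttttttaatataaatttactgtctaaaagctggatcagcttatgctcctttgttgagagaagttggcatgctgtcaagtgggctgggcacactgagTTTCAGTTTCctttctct
CXCL10: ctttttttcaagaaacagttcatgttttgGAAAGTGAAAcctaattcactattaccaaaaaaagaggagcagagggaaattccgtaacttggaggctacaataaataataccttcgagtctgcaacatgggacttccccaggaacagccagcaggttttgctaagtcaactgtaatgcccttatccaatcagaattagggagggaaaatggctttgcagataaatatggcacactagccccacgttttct
RIGI: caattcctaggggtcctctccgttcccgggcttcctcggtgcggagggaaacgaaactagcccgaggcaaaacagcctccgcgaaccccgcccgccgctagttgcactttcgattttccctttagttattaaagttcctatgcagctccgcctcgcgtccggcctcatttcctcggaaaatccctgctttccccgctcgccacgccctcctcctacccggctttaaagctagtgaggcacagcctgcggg
The core stood 18 bases before the start of IFI44, in reverse orientation, and 221 bases before that of CXCL10, in forward orientation. The RIGI window held no match to these letters. Of the interferon list, 30 of 40 measured genes had a promoter entry and 18 of the 30 (60%) held the core, against 839 of 27305 genes (3.07%). A match describes the letters only.

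The levels of these genes varied widely between arrays of the same time. Values are given as the lowest, median and highest of 6 arrays. RIGI read 6.51, 7.15 and 8.21 at 72 h, against 5.29, 6.53 and 7.50 at 48 h. Its difference was 0.86 ± 0.32 (SE, 95% interval 0.17 to 1.54, unadjusted p 0.0179), and untreated arrays lay between 7.07 and 7.32. The 48 h arrays therefore sat mostly below the untreated level and the 72 h arrays on both sides of it. IFI44 read 3.82, 4.41 and 5.02 at 72 h, against 3.63, 3.86 and 4.40 at 48 h, a difference of 0.54 ± 0.19 (unadjusted p 0.0144). Untreated arrays of IFI44 lay between 2.99 and 3.35, below every ATRA array, and the 2 times overlapped.

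IRF9 read 7.24, 7.79 and 8.50 at 72 h, against 6.60, 7.45 and 8.06 at 48 h, a difference of 0.55. MX1 read 5.23, 5.54 and 5.80 at 72 h, against 4.95, 5.15 and 5.49 at 48 h, a difference of 0.30. Other members had estimates of similar size with wider spread, such as the interferon-induced proteins with tetratricopeptide repeats IFIT1 (0.47) and IFIT2 (0.47) and the oligoadenylate synthetases OAS1 (0.42), OAS2 (0.46) and OAS3 (0.36). Closely related members of the IFIT and OAS families may share probes. ISG15, a ubiquitin-like modifier, had a lower estimate of -0.18. The difference of USP18, which removes ISG15 from proteins, was 0.01.

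Averaged over the interferon list and set against untreated cells, the 6 arrays read 0.47, 0.77 and 1.76 at 72 h, against 0.35, 0.76 and 1.43 at 48 h. The medians of the 2 times were close, and the highest arrays were wild-type replicates 1 (1.76) and 3 (1.63) at 72 h and wild-type replicate 3 (1.43) at 48 h. TG2 knockout arrays read 0.85, 0.47 and 0.66 at 72 h, against 0.46, 0.35 and 0.76 at 48 h. The median difference was 0.10 in TG2 knockout cells and 0.35 in wild-type cells. It moved between 0.13 without the wild-type 72 h replicate 1 and 0.39 without the wild-type 72 h replicate 2, and with 1 array left out at a time 31 to 38 of the 40 estimates were higher at 72 h. Without the 4 arrays nearest to untreated cells the list had 37 higher and 3 lower estimates with a median of 0.34.

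CXCL10, an interferon-inducible chemokine that draws T cells, had the largest estimate of any single gene. It read 5.43, 6.76 and 8.45 at 72 h, against 4.07, 5.91 and 7.84 at 48 h, with untreated arrays between 5.95 and 6.15. By array it read 6.93, 5.43 and 6.58 in TG2 knockout and 8.09, 6.57 and 8.45 in wild-type cells at 72 h. At 48 h it read 4.07, 5.54 and 6.46 in TG2 knockout and 4.17, 6.27 and 7.84 in wild-type cells. The times overlapped, and arrays of both times lay on either side of the untreated level. The difference was 1.28 ± 0.58 (SE, 95% interval 0.03 to 2.53, unadjusted p 0.0449). It was 0.82 without the wild-type 48 h replicate 1 and 1.64 without the wild-type 48 h replicate 3. IFNB1, the gene of interferon beta, read 4.02, 4.28 and 5.26 at 72 h, against 3.57, 4.07 and 4.29 at 48 h, a dim signal with a difference of 0.43 ± 0.22.

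**Figure D3:**
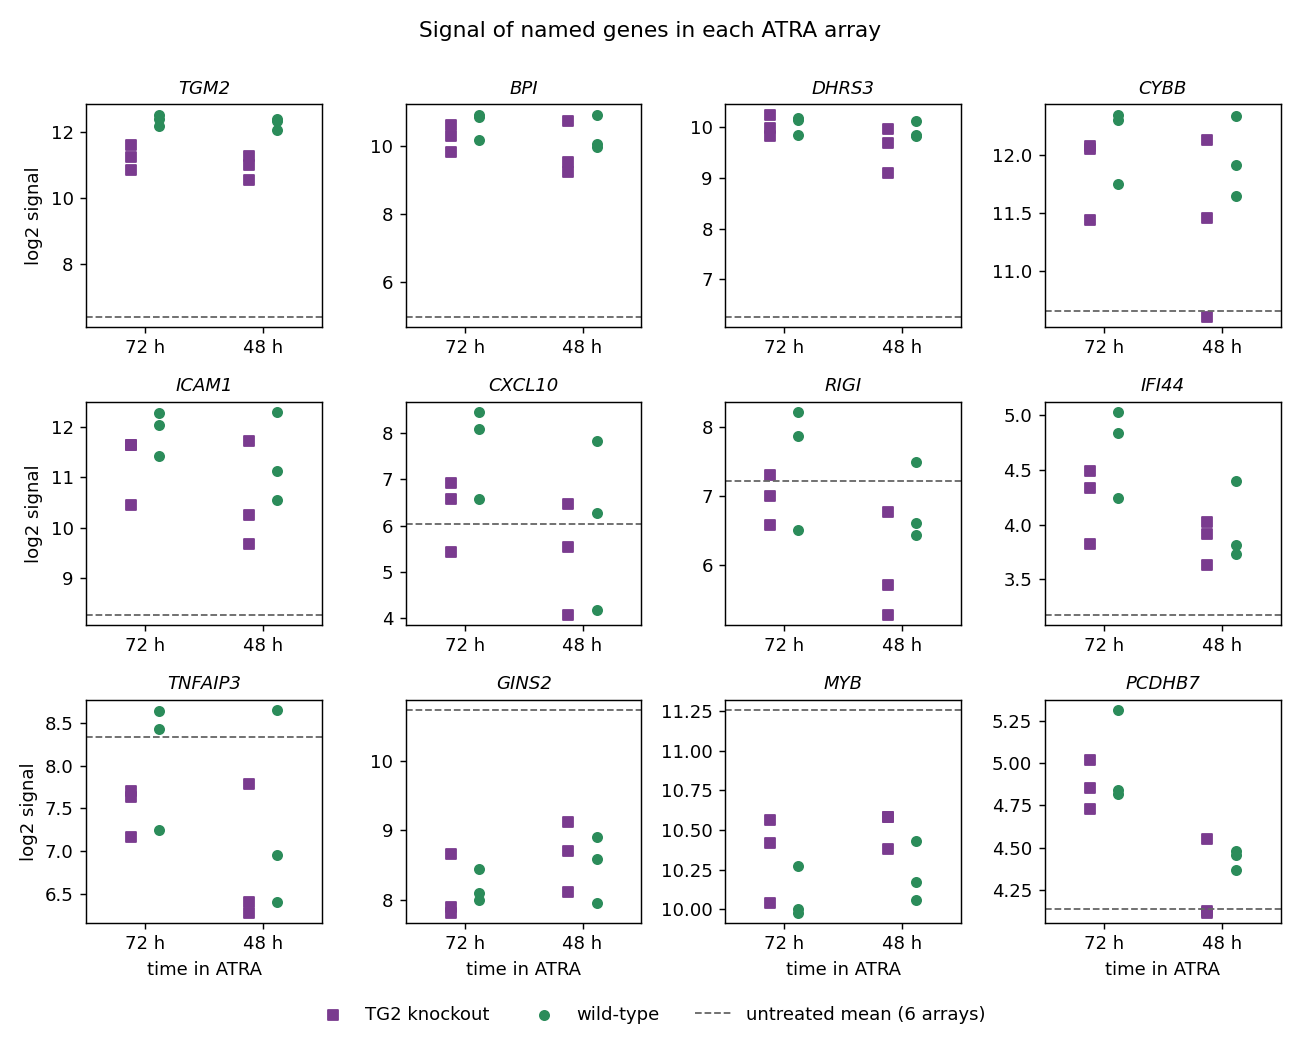
Log2 signal of 12 named genes in each ATRA array at 72 h and 48 h, with TG2 knockout cells as squares, wild-type cells as circles and a dashed line at the mean of the 6 untreated arrays; each panel has its own axis. In 11 panels the 2 times overlap, and PCDHB7 is the exception, with all 72 h arrays at 4.73 or more and all 48 h arrays at 4.55 or less.

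NF-κB targets and regulators also had mostly higher estimates, with none called. In this list 21 of its 24 measured genes had a higher estimate at 72 h and 3 a lower one, with a median of 0.14. TNFAIP3, which encodes the feedback inhibitor A20, read 7.16, 7.67 and 8.64 at 72 h, against 6.28, 6.68 and 8.65 at 48 h, a difference of 0.72 ± 0.38 (unadjusted p 0.0766). Untreated arrays of TNFAIP3 lay between 8.20 and 8.41, above its median at either time. NFKB2, the precursor of p52, read 8.08, 8.87 and 9.20 at 72 h, against 7.32, 7.99 and 9.42 at 48 h, a difference of 0.56 ± 0.31. ICAM1, an adhesion molecule that binds the leukocyte integrins, read 10.46, 11.64 and 12.26 at 72 h, against 9.69, 10.84 and 12.28 at 48 h, a difference of 0.64 ± 0.36. For each of these genes the highest 48 h array stood above the highest 72 h array. The estimates of NFKBIA, the inhibitor that NF-κB induces, and of RELA, a subunit of NF-κB, were 0.51 and 0.00. The list's median was 0.09 without the wild-type 48 h replicate 1 and 0.25 without the wild-type 48 h replicate 3. Without the 4 arrays nearest to untreated cells it had 17 higher and 7 lower estimates with a median of 0.08.

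Chemokines, cytokines and immediate early genes gave mixed estimates. Of the chemokines, 12 of 25 were higher and 13 lower, with a median of 0.00 whose sign was kept in 12 of 23 alternative settings. CCL20, a ligand of CCR6, read 7.06, 7.29 and 7.72 at 72 h, against 6.06, 6.74 and 7.78 at 48 h, a difference of 0.53 ± 0.25 (unadjusted p 0.0555). Of the cytokines, 16 of 26 were higher, with a median of 0.07. SPP1, which encodes osteopontin, read 7.44, 8.52 and 10.40 at 72 h, against 6.56, 7.77 and 10.56 at 48 h, a difference of 0.82 ± 0.53 that was 0.48 without the wild-type 48 h replicate 1 and 1.22 without the wild-type 48 h replicate 3. Of the immediate early genes, 18 of 27 were higher, with a median of 0.09. ATF3, a stress-induced transcription factor, went the other way, with 5.17, 5.46 and 6.02 at 72 h, against 5.39, 5.98 and 6.53 at 48 h and a difference of -0.46 ± 0.21 (unadjusted p 0.0433). DUSP5, a phosphatase of ERK, had a difference of 0.30 ± 0.16.

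The oxidase of mature neutrophils had small estimates. Its subunits had 7 of 8 higher estimates with a median of 0.07, and the interval lay inside 2-fold for all 8. CYBB, which encodes the catalytic subunit gp91phox, read 11.44, 12.07 and 12.35 at 72 h, against 10.61, 11.79 and 12.34 at 48 h, a difference of 0.31 ± 0.23, and untreated arrays lay between 10.51 and 10.79. Its lowest value, 10.61 in TG2 knockout replicate 2 at 48 h, was within the untreated range of the 2 lines together. It lay just above the untreated arrays of its own line, which read 10.51 to 10.58. The CYBB difference was 0.12 without TG2 knockout replicate 2 at 48 h. Without the 4 arrays nearest to untreated cells it was 0.61, with that replicate as the only TG2 knockout array at 48 h. NCF4, the cytosolic subunit p40phox, read 7.97, 8.47 and 8.95 at 72 h, against 7.82, 8.27 and 8.91 at 48 h. Untreated arrays of NCF4 lay between 8.96 and 9.45, above every ATRA array. Both genes overlapped between the times over most of their range.

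Of the surface receptors, 26 of 35 had a higher estimate, with a median of 0.10. CR1, the complement receptor that clears opsonised particles, had a large but variable difference, with 4.99, 7.42 and 8.45 at 72 h, against 4.86, 5.96 and 7.59 at 48 h and 0.93 ± 0.58 (SE, 95% interval -0.32 to 2.18). CEACAM1, an adhesion molecule, read 5.97, 6.45 and 8.07 at 72 h, against 5.54, 6.17 and 7.19 at 48 h, a difference of 0.46 ± 0.26. The integrin subunits ITGAM (CD11b), ITGAX (CD11c) and ITGB2 (CD18), which mark granulocytic maturation, had differences of 0.14, 0.32 and 0.27. CSF3R, the G-CSF receptor of granulocytes, had a difference of 0.19. The receptor list's median was 0.07 without the wild-type 72 h replicate 3 and 0.19 without the wild-type 48 h replicate 3, and had 21 higher and 14 lower estimates with a median of 0.10 without the 4 arrays nearest to untreated cells.

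Granule genes showed no common direction. The azurophil granule list, of granule proteins made at the promyelocyte stage and an inhibitor of their proteases, had 7 higher and 8 lower estimates among 15. BPI, a protein that permeabilises bacteria, read 9.83, 10.46 and 10.93 at 72 h, against 9.24, 10.02 and 10.92 at 48 h, far above its untreated values between 4.80 and 5.23, and its difference was 0.37 ± 0.26. SERPINB1, an inhibitor of neutrophil proteases, read 9.96, 10.53 and 10.82 at 72 h, against 9.13, 10.19 and 10.77 at 48 h, a difference of 0.33 ± 0.22. MPO (myeloperoxidase) and ELANE (neutrophil elastase) had differences of -0.03 and -0.01.

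Specific and gelatinase granule genes, which belong to later stages, had 12 higher and 9 lower estimates among 21. The list held 3 genes with a higher and 1 with a lower value at an unadjusted p under 0.05. QPCT, a glutaminyl cyclase, read 4.79, 5.33 and 5.82 at 72 h, against 4.13, 4.71 and 5.02 at 48 h, a difference of 0.63 ± 0.20 (unadjusted p 0.00716). MMP8, the neutrophil collagenase, read 4.09, 4.88 and 6.32 at 72 h, against 3.56, 4.47 and 5.51 at 48 h, a difference of 0.56 ± 0.23, and HP, which encodes haptoglobin, differed by 0.78. LTF, which encodes lactoferrin, was the lower one, at 5.33, 5.80 and 6.30 for 72 h, against 5.86, 6.25 and 6.34 for 48 h. All 4 were dim and overlapped between the times, and the list's median of 0.10 turned to -0.05 both among brighter probe sets and without the 4 arrays nearest to untreated cells.

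The list of retinoid targets and metabolism, as a mean, stood far above untreated cells at both times, and the 2 times were close. Averaged over the 32 measured genes of this list and set against untreated cells, the arrays read 0.88, 1.08 and 1.30 at 72 h, against 0.83, 1.00 and 1.23 at 48 h. In this list 22 of its 32 measured genes had a higher estimate at 72 h and 10 a lower one, with a median of 0.04, and the interval lay inside 2-fold for 31 of 32. CYP26B1, which degrades retinoic acid, read 6.84, 7.08 and 7.44 at 72 h, against 6.55, 6.65 and 7.35 at 48 h, a difference of 0.30 ± 0.14 (unadjusted p 0.053). DHRS3, a retinaldehyde reductase, read 9.82, 10.07 and 10.25 at 72 h, against 9.09, 9.84 and 10.12 at 48 h, with untreated arrays between 5.94 and 6.50. Its difference of 0.28 ± 0.15 was small beside its distance from untreated cells. ASB2, a ubiquitin ligase subunit induced by ATRA in this leukemia, had the largest estimate of the list, 0.54.

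Genes of cell division stood below their untreated level at both times, with mostly lower estimates at 72 h and none called. The arrays, averaged over the mitosis list and set against untreated cells, read -1.0, -0.82 and -0.44 at 72 h, against -0.93, -0.71 and -0.39 at 48 h. Of its genes, 43 of 51 had a lower estimate, with a median of -0.09, and 0 had an unadjusted p under 0.05. CENPE, the kinetochore motor, read 6.15, 6.63 and 6.92 at 72 h, against 6.47, 6.86 and 7.0 at 48 h, a difference of -0.23 ± 0.13. MAD2L1, a spindle checkpoint protein, read 7.94, 8.40 and 8.92 at 72 h, against 8.43, 8.69 and 9.14 at 48 h, a difference of -0.26 ± 0.15. Both genes overlapped between the times.

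DNA replication genes had 47 of 53 lower estimates with a median of -0.10, and nucleotide synthesis genes 22 of 28 with a median of -0.12. GINS2, a subunit of the replicative helicase, read 7.82, 8.05 and 8.66 at 72 h, against 7.96, 8.65 and 9.12 at 48 h, a difference of -0.41 ± 0.21 (unadjusted p 0.071), with untreated arrays between 10.68 and 10.80, and E2F2, an E2F transcription factor, differed by -0.20 ± 0.12. PPAT, the first enzyme of purine synthesis, read 8.35, 8.83 and 9.34 at 72 h, against 8.79, 9.12 and 9.42 at 48 h, and CTPS1, which makes CTP, differed by -0.25 ± 0.14. The interval lay inside 2-fold for every gene of these lists and of the mitosis list. The counts depended on single arrays. Without wild-type replicate 1 at 48 h, the ATRA array nearest to untreated cells, the medians were -0.03 for mitosis, -0.02 for DNA replication and -0.05 for nucleotide synthesis. Without the 4 arrays nearest to untreated cells, lower estimates were 31 of 51 for mitosis, 32 of 53 for replication and 19 of 28 for nucleotide synthesis.

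MYC and its targets in ribosome biogenesis had similar counts, with 31 of 38 lower estimates and a median of -0.12. LYAR, a nucleolar protein, read 8.71, 9.14 and 9.62 at 72 h, against 9.21, 9.52 and 9.69 at 48 h, a difference of -0.34 ± 0.14 (unadjusted p 0.0348). NOP14, which helps to mature the small ribosomal subunit, differed by -0.18 ± 0.10. The list's median was -0.18 without the TG2 knockout 72 h replicate 2 and -0.06 without the wild-type 48 h replicate 1. Ribosomal protein genes themselves had a median of 0.03, with RPL22 at -0.35 ± 0.19 and RPS27 at 0.12 ± 0.08. Inhibitors of the cell cycle and G1 cyclins divided evenly, 9 higher and 9 lower, and CDKN2D, the inhibitor p19, differed by 0.14 ± 0.09. TP53INP1, which p53 induces and which is on this list and the next, differed by -0.23 ± 0.13. Of the p53 targets, 8 were higher and 14 lower, and ZMAT3, an RNA-binding p53 target, differed by 0.43 ± 0.17 (unadjusted p 0.0244).

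**Figure D4:**
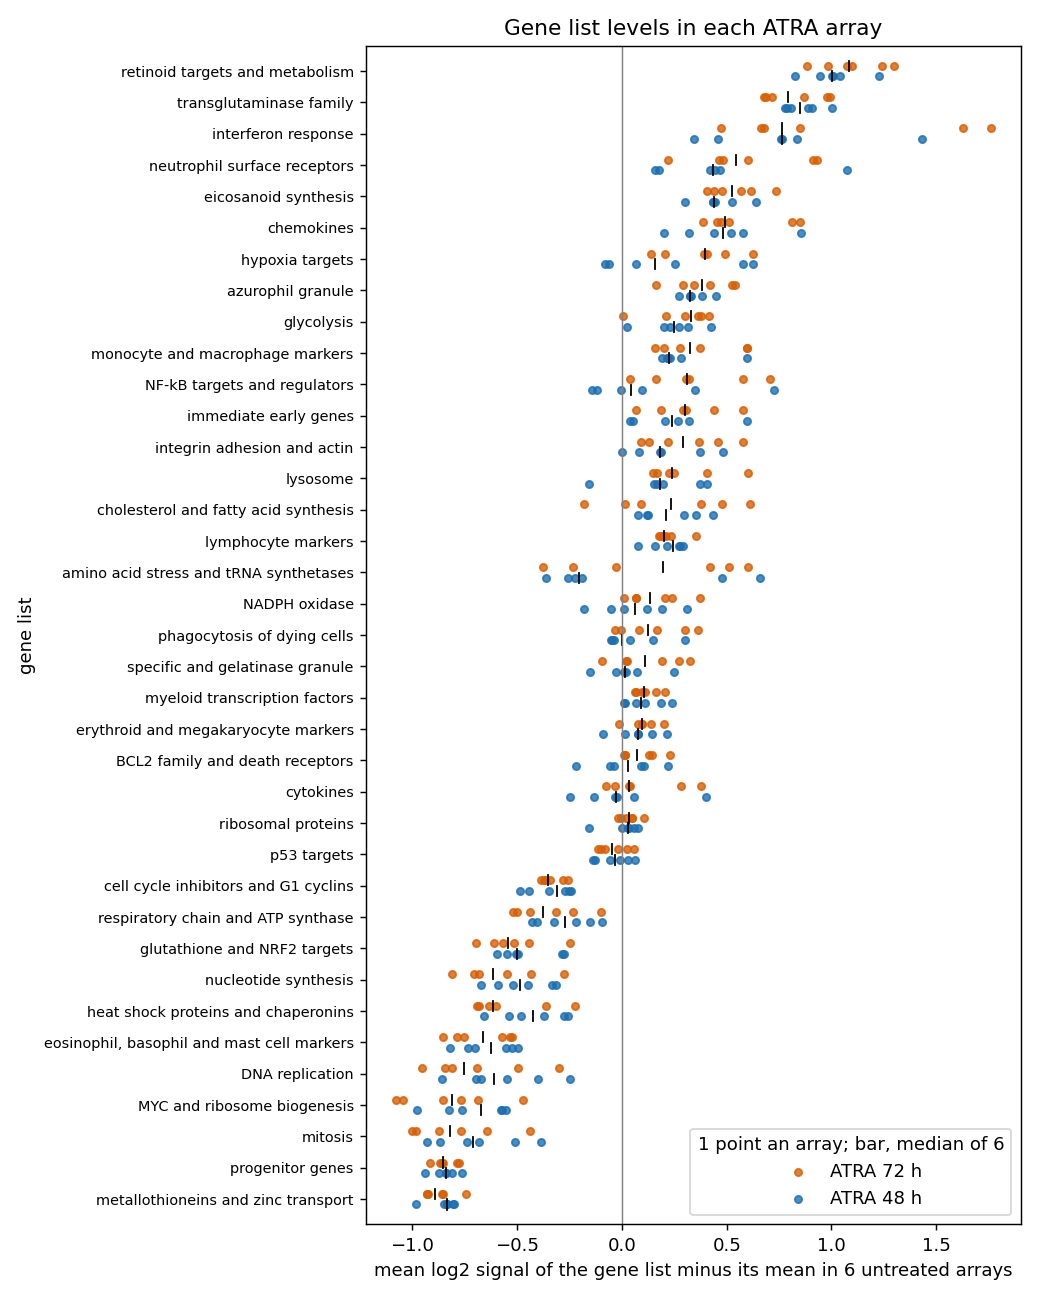
Mean log2 signal of each of the 37 gene lists in every ATRA array, minus the list's mean in the 6 untreated arrays, with 72 h in orange above 48 h in blue and a bar at the median of 6 arrays. The 2 times overlap in every list, also where the lists lie far from untreated cells, such as retinoid targets at medians of 1.08 at 72 h and 1.00 at 48 h and mitosis at -0.82 at 72 h and -0.71 at 48 h.

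Among metabolic and stress lists, hypoxia targets and lysosomal genes had mostly higher estimates and heat shock proteins mostly lower ones. Hypoxia targets had 16 of 18 higher with a median of 0.17. The prolyl hydroxylase EGLN3 differed by 0.18 ± 0.11, LOX, which encodes lysyl oxidase, by 0.18 ± 0.13, and VEGFA, the vascular growth factor, by 0.29, the largest estimate of the list. The median of the hypoxia list was 0.06 without the wild-type 48 h replicate 1 and 0.25 without the TG2 knockout 72 h replicate 1. Lysosomal genes had 22 of 26 higher with a median of 0.11. CTSB, the protease cathepsin B, read 7.61, 8.12 and 8.93 at 72 h, against 7.17, 7.77 and 8.26 at 48 h, a difference of 0.37 ± 0.18 (unadjusted p 0.0584). Untreated arrays of CTSB lay between 8.42 and 8.71, above its median at either time. CTSH, the protease cathepsin H, differed by 0.28 ± 0.16, with untreated arrays between 9.98 and 10.24, above every ATRA array. Heat shock proteins and chaperonins had 21 of 25 lower with a median of -0.10, and the chaperonin subunits CCT2 and CCT4 differed by -0.20 ± 0.12 (CCT2) and -0.16 ± 0.11 (CCT4). In these 3 lists the interval lay inside 2-fold for all genes but 1 of the hypoxia list.

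Amino acid stress genes and tRNA synthetases, which the transcription factor ATF4 induces, varied widely among arrays of the same time. Averaged over the list and set against untreated cells, TG2 knockout arrays read 0.51, -0.03 and 0.60 at 72 h, against -0.19, -0.36 and 0.66 at 48 h. Wild-type arrays read -0.38, -0.24 and 0.42 at 72 h, against -0.22, -0.26 and 0.48 at 48 h. Replicate 3 was the highest of its group in all 4 groups. The list's median difference of 0.10 was 0.00 without the TG2 knockout 48 h replicate 2 and 0.23 without the wild-type 48 h replicate 3. WARS1, the tryptophan tRNA synthetase, differed by 0.27 ± 0.24, and CEBPB, also on this list, is given below.

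Other metabolic lists were close to 0. Glycolysis genes had a median of 0.00, with SLC2A3, a glucose transporter, at 0.56 ± 0.35 (0.27 without wild-type replicate 1 at 48 h) and the aldolase gene ALDOC at 0.36 ± 0.19. Respiratory chain genes had a median of -0.05, with COX6C, a subunit of cytochrome oxidase, at -0.31 ± 0.17 and CYCS, which encodes cytochrome c, at -0.17 ± 0.10. Cholesterol and fatty acid synthesis had a median of -0.04 that was -0.15 without the TG2 knockout 72 h replicate 2 and 0.07 without the TG2 knockout 72 h replicate 1. ABCA1, which exports cholesterol, read 7.60, 8.64 and 9.38 at 72 h, against 7.10, 8.05 and 8.51 at 48 h, a difference of 0.57 ± 0.30, and SREBF2, which drives cholesterol synthesis, differed by 0.19 ± 0.10. Glutathione and NRF2 targets had a median of -0.06 and metallothioneins of -0.03. SOD2, the mitochondrial superoxide dismutase, differed by 0.24 ± 0.15 and GSS, which makes glutathione, by -0.16 ± 0.11. MTF1, the zinc-sensing factor that induces metallothioneins, differed by 0.35 ± 0.16 (unadjusted p 0.0516), while MT1G, a metallothionein, differed by -0.22 ± 0.16.

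BCL2 family members and death receptors had 21 of 28 higher with a median of 0.09, and the interval lay inside 2-fold for all 28. BIK, a pro-apoptotic member, read 5.80, 6.19 and 6.33 at 72 h, against 6.24, 6.50 and 6.78 at 48 h, a difference of -0.34 ± 0.13 (unadjusted p 0.0186), and FASLG, the Fas ligand, differed by 0.27 ± 0.14. Genes for the uptake of dying cells, a process in which TG2 takes part in macrophages, had a median of 0.04, with the lipid transporter ABCA7 at 0.20 ± 0.11 and the interval inside 2-fold for 25 of 28. Integrin adhesion and actin genes had a median of 0.02, with TLN1, which encodes talin, at 0.22 ± 0.11, the integrin subunit ITGA6 at 0.33 ± 0.21 and the interval inside 2-fold for 26 of 28. THBS1, a matrix protein on both of these lists, read 6.13, 8.68 and 10.27 at 72 h, against 6.31, 7.39 and 9.79 at 48 h, a difference of 0.87 ± 0.64 (95% interval -0.50 to 2.25) whose range at each time was wider than the difference. Among the 9 transglutaminase genes, TGM6 differed by -0.27 ± 0.12 (unadjusted p 0.0435) and TGM4, the prostate enzyme, by -0.20 ± 0.13, both dim.

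Myeloid transcription factors divided evenly, 12 higher and 12 lower. IRF8, which directs monocyte development, read 6.29, 6.89 and 7.16 at 72 h, against 5.84, 6.38 and 7.10 at 48 h, a difference of 0.36 ± 0.17 (unadjusted p 0.0513). CEBPB, which acts in emergency granulopoiesis, read 9.36, 9.66 and 9.88 at 72 h, against 9.08, 9.44 and 9.79 at 48 h, above untreated arrays between 7.76 and 8.04, and differed by 0.22 ± 0.11. Progenitor genes had a median of -0.05, and MYB, a driver of progenitor growth, read 9.98, 10.16 and 10.56 at 72 h, against 10.06, 10.41 and 10.58 at 48 h, below untreated arrays between 11.17 and 11.34. CD44, an adhesion receptor on the same list, had a higher estimate, 0.51 ± 0.35. Eicosanoid genes had a median of 0.01. In that list PLA2G7, which breaks down platelet-activating factor, differed by 0.48 ± 0.16 (unadjusted p 0.0118), and PTGES, a prostaglandin E synthase, read 7.67, 8.89 and 9.63 at 72 h, against 7.65, 7.94 and 9.70 at 48 h.

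Markers of other cell types had medians between -0.09 and 0.10, and none of their genes had an unadjusted p under 0.05. Monocyte and macrophage markers had 14 of 22 higher with a median of 0.10, which was 0.01 without the wild-type 72 h replicate 1 and 0.15 without the wild-type 72 h replicate 2. Their mean above untreated cells was 0.16, 0.32 and 0.60 at 72 h, against 0.19, 0.23 and 0.59 at 48 h. CD14, the defining monocyte receptor, differed by -0.02, CD68, a lysosomal protein of macrophages, by 0.25 ± 0.14 and TREM2, a macrophage receptor, by -0.22 ± 0.12. Eosinophil, basophil and mast cell markers had a median of -0.09, erythroid and megakaryocyte markers of 0.06 and lymphocyte markers of 0.01. ENPP3, a basophil surface enzyme, differed by 0.26 ± 0.13 and CMA1, the mast cell protease chymase, by -0.27 ± 0.15. The erythroid factor GATA1 differed by -0.29 ± 0.15 and EPOR, the erythropoietin receptor, by -0.21 ± 0.12. GNLY, which encodes granulysin of cytotoxic lymphocytes, differed by -0.28 ± 0.15 and CD5, a surface protein of T cells, by -0.21 ± 0.12.

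The 12 named genes with the smallest unadjusted p among higher estimates were all dimmer than the median probe set except ARID5A. They included PCDHB7, a protocadherin that mediates adhesion between neurons, at 4.73, 4.85 and 5.31 at 72 h, against 4.12, 4.42 and 4.55 at 48 h. Its difference was 0.58 ± 0.13 (SE, unadjusted p 0.000714), the smallest p of a named gene, and the times did not overlap. Its neighbour PCDHB8 differed by 0.88 ± 0.24, and members of this family are near-identical copies that may share probes. DEFB129, a beta-defensin, read 4.05, 4.38 and 4.81 at 72 h, against 3.23, 3.81 and 3.99 at 48 h, and GREB1L, needed for kidney development, read 4.74, 4.89 and 5.0 at 72 h, against 4.17, 4.40 and 4.62 at 48 h. RAG1, the recombinase of lymphocyte receptor genes, read 4.41, 4.51 and 4.60 at 72 h, against 3.72, 3.97 and 4.36 at 48 h, and DZIP1, a ciliary protein, 5.39, 5.60 and 5.84 at 72 h, against 4.95, 5.20 and 5.34 at 48 h. These 4 genes had no overlap between the times either. ARID5A, an RNA-binding protein that stabilises inflammatory mRNAs, was the brightest and differed by 0.34 ± 0.09. The other members of the 12 were LRRC39, OLFM3, GABRG1, RAPGEF1 and SPDYE4, with differences between 0.42 and 0.70.

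On the lower side, ZNF675, a zinc finger protein, had the smallest p of a named gene and read 5.10, 5.91 and 6.32 at 72 h, against 6.21, 6.38 and 6.84 at 48 h. Its difference was -0.63 ± 0.17 (SE, unadjusted p 0.0024), and untreated arrays lay between 8.01 and 8.40, above all ATRA arrays. CNN1, the smooth muscle protein calponin, read 5.41, 5.47 and 5.62 at 72 h, against 5.69, 5.86 and 6.10 at 48 h, and DGCR6L read 7.54, 7.89 and 8.15 at 72 h, against 8.16, 8.19 and 8.41 at 48 h. ZNF544, another zinc finger protein, read 5.64, 6.02 and 6.25 at 72 h, against 6.26, 6.36 and 6.72 at 48 h. These 3 did not overlap between the times. MRPL15, a mitochondrial ribosomal protein, was among the brighter ones at 7.76, 7.96 and 8.27 at 72 h, against 8.18, 8.27 and 8.39 at 48 h, and ING2, a chromatin reader, differed by -0.39 ± 0.12. The remaining 6 of the 12, TCAF1, TSPAN5, TBC1D31, NCKAP5L, MEIS3 and ANKRD54, had differences between -0.55 and -0.33.

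Genes with the largest estimates were picked out after their values were seen, from protein-coding genes brighter than the median probe set. The higher ones were CXCL10, CR1, THBS1, RIGI and SPP1, given above, and 3 further genes. The complement component C3 read 6.57, 8.90 and 9.80 at 72 h, against 6.63, 7.06 and 9.56 at 48 h, a difference of 0.85 ± 0.64. LAMB3, a laminin subunit, read 8.40, 9.76 and 10.37 at 72 h, against 7.85, 8.26 and 10.36 at 48 h, and LRRK2, a kinase linked to Parkinson disease, read 5.05, 6.85 and 8.22 at 72 h, against 4.63, 5.53 and 7.91 at 48 h. In all 3 the ranges of the times overlapped over most of their width, and untreated arrays of LAMB3 and LRRK2 lay below every ATRA array.

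The largest lower estimates of protein-coding genes brighter than the median probe set were those of EPCAM, an adhesion molecule, at -0.63 ± 0.26, and of H4C4, a histone H4 gene, at -0.63 ± 0.46. H4C4 rested on TG2 knockout replicate 2 at 48 h, and without that array its difference was -0.13. The next were MEIS3, ANKRD18B, the complex I subunits NDUFB6 (-0.51 ± 0.27) and NDUFB3 (-0.49 ± 0.30), the splicing protein SNRPF (-0.51 ± 0.24) and the mitochondrial import protein TIMM8B (-0.46 ± 0.22). Some small nucleolar RNAs, which guide the modification of other RNAs, had lower estimates of that size or more, such as SNORD49A (-0.80) and SNORD78 (-0.65). Of the 8 protein-coding genes, EPCAM and MEIS3 had an unadjusted p under 0.05.

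Taken one at a time, neither line gave a call. In TG2 knockout cells 0 probe sets were called between 72 and 48 h (0%, smallest adjusted p 0.693, 1368 at an unadjusted p under 0.05), and in wild-type cells 0 (0%, 946 before adjustment). Without the 4 arrays nearest to untreated cells, replicate 2 was the only TG2 knockout array left at 48 h. Calls within that line are therefore not given for this setting. The difference between the lines, tested as an interaction, also gave 0 calls (0%), with 938 under that threshold before adjustment. The differences of the lines, which share no arrays, correlated at 0.108 over 18417 genes of the same platform and normalization.

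Named genes with the smallest p for the difference between the lines had estimates of opposite sign in the lines. PCDHB16, a protocadherin, had estimates of 0.38 in TG2 knockout cells and -0.69 in wild-type cells (interaction, unadjusted p 0.000952). TXK, a tyrosine kinase of T cells, and UGT2B10, a glucuronosyltransferase, shared this pattern, TXK with 0.59 in TG2 knockout cells and -0.48 in wild-type cells and UGT2B10 with 0.57 in TG2 knockout cells and -1.21 in wild-type cells. The opposite pattern was that of GPRASP3, with -0.65 in TG2 knockout cells and 0.69 in wild-type cells, of SLC2A4, the insulin-responsive glucose transporter, with -0.56 in TG2 knockout cells and 0.48 in wild-type cells, and of MUC12, a mucin, with -1.17 in TG2 knockout cells and 0.28 in wild-type cells. Their interaction had an adjusted p of 1.00 in each case, and none was called.

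Among the lists, amino acid stress genes differed most between the lines, with medians of 0.28 in TG2 knockout cells and -0.10 in wild-type cells. Next came the interferon list, with 0.10 in TG2 knockout cells and 0.35 in wild-type cells, and the eosinophil, basophil and mast cell markers, with -0.19 in TG2 knockout cells and 0.04 in wild-type cells. Lysosomal genes (0.13 in TG2 knockout cells and 0.09 in wild-type cells) and heat shock proteins (-0.10 in TG2 knockout cells and -0.11 in wild-type cells) were close in the lines. These differences between the lines were not tested for whole lists.

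**Figure D5:**
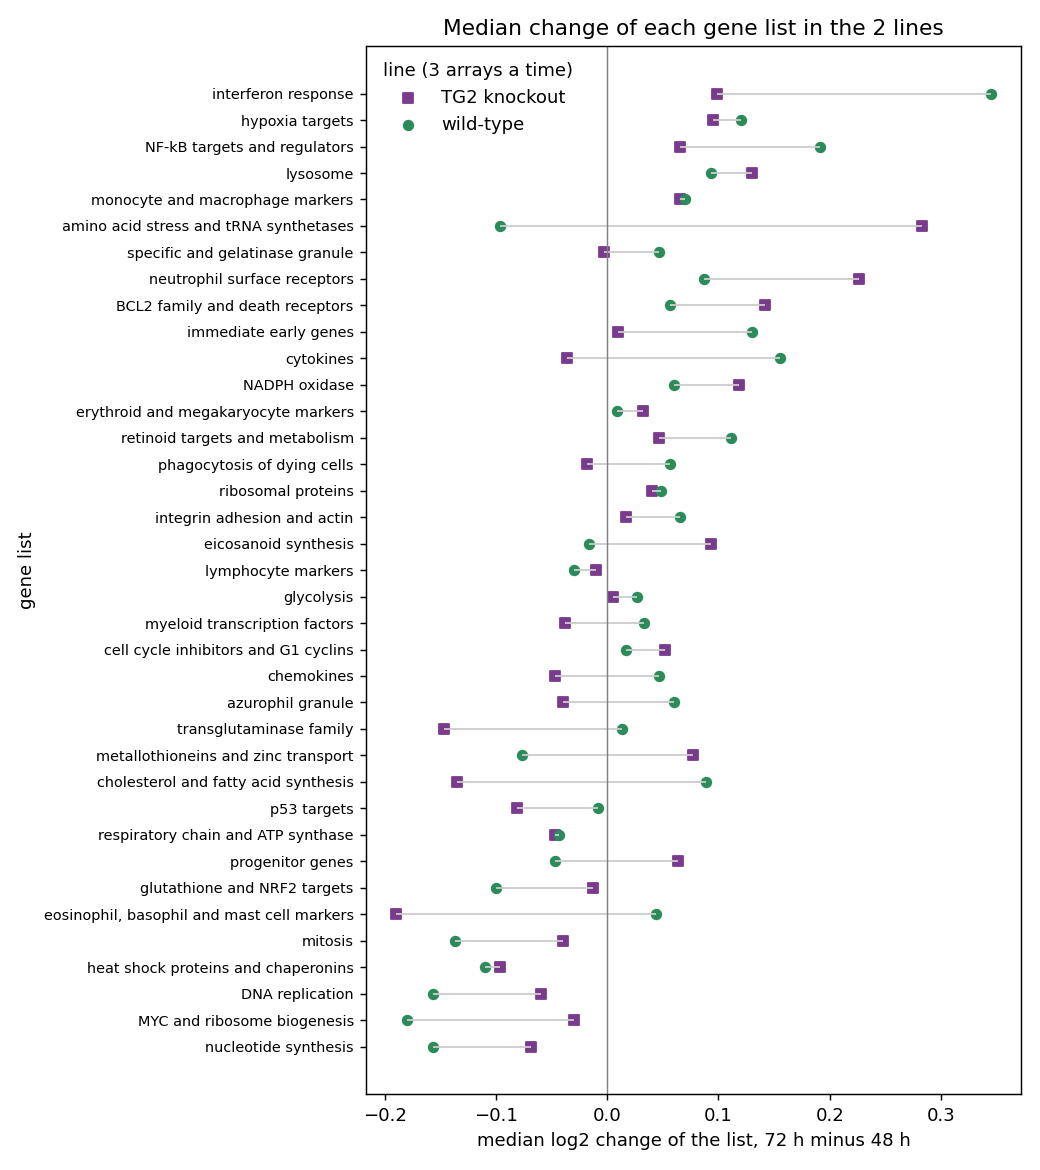
Median log2 difference, 72 h minus 48 h, of each of the 37 gene lists in TG2 knockout cells (squares) and wild-type cells (circles), with 3 arrays a time in each line. The interferon list lies at 0.10 in TG2 knockout and 0.35 in wild-type cells, and the amino acid stress list at 0.28 in TG2 knockout and -0.10 in wild-type cells.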

How the data were processed

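Total RNA of 18 NB4 samples was measured on Affymetrix whole-transcript gene arrays, and the 12 ATRA arrays enter the tests. The deposited values, 1 for each probe set on each array, were read as log2 from their range. How the authors corrected, normalized and summarised the probes is not given in the sources used here. No further normalization was applied. Of 33297 probe sets, 19460 name 1 gene, 1754 several and 12083 none in the platform annotation, and symbols of 19429 matched RefSeq by Entrez identifier. A gene is given by its single-gene probe set with the highest mean over the 12 arrays.

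limma 3.58.1 in R 4.3.3 (lmFit, eBayes with trend) fitted genotype and time to the 12 arrays. A model with 1 mean per group gave the contrasts within each line and their interaction. Adjusted p is Benjamini-Hochberg over all probe sets, called under 0.05, with 95% intervals. The script was tested on simulated data. As no gene was called, the text names TGM2, the 12 protein-coding genes with the smallest p in each direction, 3 in each direction for the difference between lines and 2 for each list. Other list members, the 8 largest differences in each direction and the small nucleolar RNAs were named after their values were seen. The lists and the comparison were chosen with earlier results of these data known. The arrays set apart on the first component were also picked from those results.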

Additional observations from a re-analysis of the deposited data

Results flagged for a closer look

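Among 304 sets of 6 arrays of 1 time, 10 had an array set apart from the other 5 by more than Dixon's 95% critical value. Chance sets an array apart in about 1 in 20 sets. On the first principal component, TG2 knockout replicate 2 at 72 h scored 29.99, nearer to untreated cells than the next lowest array at 46.27. Wild-type replicate 3 at 48 h was set apart upward in 3 measures. Its mean above untreated cells was 1.07 for neutrophil surface receptors, with the next array at 0.47, and 0.595 for monocyte and macrophage markers, with the next at 0.280. In the same array PTGES, a prostaglandin E synthase, read 9.70, against 8.25 in the next. Wild-type replicate 2 at 48 h was set apart downward for ribosomal proteins, at -0.157, and for RPS27, a protein of the small ribosomal subunit, at 11.95, where the other 48 h arrays were at 12.30 or more. TG2 knockout replicate 2 at 48 h was set apart upward for DGCR6L, at 8.41, and for H4C4, a histone H4 gene, at 11.25, with the next array at 8.89. TG2 knockout replicate 3 at 48 h was lowest for metallothioneins, at -0.985, and wild-type replicate 2 at 72 h was highest for lymphocyte markers, at 0.355.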

How the results depend on the processing

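Each result was recomputed under up to 23 alternatives: 2 normalizations, filters, variance priors, array weights, blocks, other sets of arrays and each array left out. The pooled comparison gave 0 calls under all but the left-out arrays, where it gave 0 to 1 (with 1098 to 1831 under 0.05 before adjustment), and the single calls came without wild-type replicate 3 at 48 h and without TG2 knockout replicate 2 at 72 h. TG2 knockout cells gave 0 calls under every alternative that kept more than 1 array of that line at each time. Without the 4 arrays nearest to untreated cells, only replicate 2 of that line was left at 48 h, and its calls are not given. Wild-type cells and the interaction gave 0 calls under every alternative, and list genes and named genes had 0 calls under every one. Before adjustment, the pooled count of p under 0.05 moved more, with 421 among brighter probe sets, 1828 with the replicate number as a block within lines, 1964 with numbers shared by the lines, 2424 without the 4 arrays and 2646 with all 18 arrays. The labels do not tie replicate numbers to a culture, so the replicate block was kept out of the main fit. Deviations of same-numbered arrays at 72 and 48 h correlated at -0.027, -0.0025 and 0.051 in TG2 knockout and 0.095, 0.137 and 0.186 in wild-type cells. The same number was best in 4 of 6 cases, among them every wild-type case. These values do not settle whether same-numbered arrays are pairs. The first component differed by 1.27 to 9.19 with arrays left out. Computed from the 12 ATRA arrays it is another axis, with its sign set so that it correlated positively with the main scores. On that axis the times differed by -24.4 (exact permutation p 0.145), the reverse direction of the 5.89 in the main test. The 114 genes named by rule or by size of estimate kept the direction of the comparison they were named for, pooled or interaction, under the alternatives run. Their choice from the same arrays favours this. Other list members and small nucleolar RNAs were not recomputed one by one. Probe signal over background was not available, so dim probe sets could not be set aside by detection.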
